A study of Danio rerio with 2 samples.

Results

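In the melanoma line zcrest 2, 685 wide accessible regions stood at least 5 kb away from every accessible region called in a second line, zcrest 1. They were chosen from the zcrest 2 list on chromosomes 1 to 25 by a width of at least 600 bp and by the lack of any zcrest 1 region within 5 kb of either edge. The zcrest 2 list held 53132 regions in all and 53129 on those chromosomes, of which 11105 were at least 600 bp wide. The 685, called alone regions here, were compared with the 10101 wide zcrest 2 regions that overlapped a zcrest 1 region by at least 1 bp, called shared regions. The remaining 319 wide regions had a zcrest 1 region within 5 kb but not on them.

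Accessibility was measured by ATAC-seq, in which a transposase cuts DNA that is not wrapped tightly on nucleosomes and leaves sequencing adapters there. Accessible regions lie mostly at promoters and at distal elements such as enhancers. Wide refers here only to a called width of at least 600 bp. Whether a wide region covers more than a single short element was not examined. Melanoma arises from melanocytes, which descend from the neural crest, and the series' title concerns neural crest identity in melanoma.

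For zcrest 2 and for zcrest 1, 1 library of 50000 cells was made, and both are zebrafish melanoma cell lines kept for more than 20 passages. Both carried the same listed alterations, p53/BRAF/Na, the reporter crestin:EGFP, which marks neural crest cells by green fluorescence, and MiniCoopR alone, a vector used to rescue melanocytes with mitfa, with no further gene listed. The abbreviation Na was not expanded in the labels. With 1 library per line, every statement is about these 2 libraries, no difference between the lines could be tested, and the intervals given are exact (Clopper-Pearson) 95% binomial intervals that cover counting error only. Regions near each other are not independent, so the true uncertainty is wider than these intervals. Positions are in the zebrafish build Zv9. No genome or gene annotation of that build was used here, so no gene is named, no sequence is printed and the identity of the lines was not checked against marker genes.

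The width in zcrest 2 and the absence of zcrest 1 regions chose the alone regions, so neither is a result. Among all zcrest 2 regions of any width, 22.4% had no zcrest 1 region within 5 kb. Among the wide ones it was 6.17%, and among those under 600 bp 26.6%. In zcrest 1 the same rule found 1866 of 12753 wide regions with no zcrest 2 region within 5 kb (14.6%, against 31.9% of zcrest 1 regions of any width). Numbers of regions move with the number of reads and with the background, which was 2.01 reads genome-wide in zcrest 2 and 1.57 in zcrest 1.

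The alone regions were mostly of moderate strength. The median had 24 reads over its summit, the point of highest read coverage, with quartiles of 18 and 34 and extremes of 10 and 113. Shared regions had a median of 39 summit reads, with quartiles of 28 and 56. Of the alone regions, 81.3% (78.2% to 84.2%) lay below the median of the shared ones. Enrichment over the local background had medians of 5.99-fold in alone regions and 7.93-fold in shared regions. Of all 53132 zcrest 2 regions ranked by -log10 q, 12 alone regions were among the 1000 strongest, and 69 (10.1%) were in the strongest decile, where 35.8% of the shared regions lay. In the lower 50% of the list stood 29.2% of the alone regions and 6.64% of the shared ones.

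The share of wide regions that were alone was lower where they were stronger and wider. Of the wide zcrest 2 regions with 10 to 14 summit reads, 26.5% were alone (21.0% to 32.6%, 63 of 238). The share was lower in each higher class of summit reads, down to 1.30% (0.773% to 2.05%, 18 of 1383) at 70 reads or more. By width it was 8.13% from 600 to 699 bp (7.33% to 9.0%) and 1.95% at 1200 bp or more (0.895% to 3.67%, 9 of 462). Wider regions also had more summit reads. In these 2 width classes the medians were 21 and 34 at alone regions and 33 and 59 at shared regions. The share by width was not examined within classes of summit reads, so the 2 trends were not separated. The widths of the alone regions had a median of 697 bp and a maximum of 1425 bp, against 744 bp and 2993 bp in shared regions, and 41 alone regions reached 1000 bp.

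**Figure D1:**
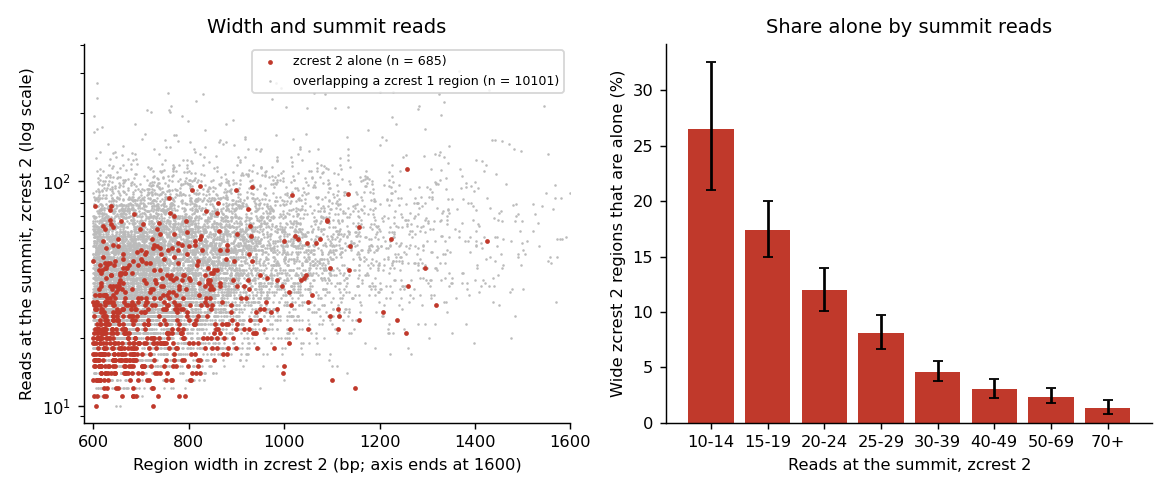
Left, region width (bp) against reads at the summit in zcrest 2 (log scale) for the 685 alone regions (red) and the 10101 shared regions (grey); the axis stops at 1600 bp. Right, percentage of wide zcrest 2 regions that were alone in each class of summit reads, with exact 95% binomial intervals as error bars; it was 26.5% at 10 to 14 reads and 1.30% at 70 reads or more.

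For a sense of what zcrest 1 showed at shared regions of such strength, those with 18 to 34 summit reads in zcrest 2 were taken. This is the range between the quartiles of the alone regions. The 3275 such regions matched one to one had a median of 27 reads in zcrest 2 and 25 in zcrest 1. In zcrest 1 their 5th percentile was 11 reads and their lowest value 7, which is also the lowest summit of the whole zcrest 1 list. Of the alone regions, 67 had at least 50 reads. The 3112 matched shared wide regions with at least 50 reads in zcrest 2 had a median of 65 reads in zcrest 2 and 52 in zcrest 1, where their 5th percentile was 22. Matching requires a called zcrest 1 region, so regions with too few zcrest 1 reads are absent from these values by construction. The values therefore do not give the zcrest 1 level to be expected at alone regions. Summit reads are given as counted, here and for the flanking regions named below, without scaling for library depth. Near-equal numbers therefore do not show equal accessibility. Over all 32455 matched pairs of any width the median was 24 reads in zcrest 2 and 24 in zcrest 1. Read numbers of zcrest 1 outside its called regions were not analysed here, so a region missing from its list cannot be told apart from one just under its calling threshold.

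The alone regions were flatter than the shared ones. Above the genome-wide value, the local background equals the number of reads in the 10 kb around the summit on a known scale, so the part of those reads that lay over the summit could be computed. At the genome-wide value, where 7.30% of the alone and 4.23% of the shared regions lay, the 10 kb held that many reads or fewer, and the part is a lower bound. It had a median of 15.4% in alone regions, with quartiles of 12.1% and 19.9%, against 19.6% in shared regions. These 10 kb held a median of 156 reads at alone regions and 200 at shared regions. In the 319 wide regions that were neither alone nor shared, the part over the summit was lower still, with a median of 12.9%. Flatness was therefore not particular to the alone regions. The part was not compared within classes of summit reads, of which alone regions had fewer, so flatness was not separated from strength. The summit lay within 150 bp of an edge in 19.1% of the alone regions (16.2% to 22.3%) and in 12.4% of the shared ones (11.8% to 13.1%). All of these values come from the same zcrest 2 call as the width.

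The strongest alone region lay at chr22:37511513-37512444, with a width of 932 bp. It ranked 195 in the zcrest 2 list, and 94 of the 289 reads in its 10 kb, or 32.5%, stood over the summit. The shared regions that flank it, 32.7 kb to the left and 40.2 kb to the right, were present in both lines. The left one had 28 reads in zcrest 2 and 24 in zcrest 1, and the right one 82 in zcrest 2 and 50 in zcrest 1. A second region, chr5:4555757-4557014, was among both the strongest and the widest, with 113 reads, the most of any alone region, over 1258 bp. Its flanking shared regions had 19 reads in zcrest 2 and 19 in zcrest 1 on the left, and 29 in zcrest 2 and 25 in zcrest 1 on the right. In zcrest 2 the region had more reads than either of these neighbours.

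The other 8 of the 10 strongest carried 74 to 95 summit reads and ranked 353 to 850. The region at chr17:15712738-15713373 was the most sharply peaked of all 685: 77 of 203 reads in its 10 kb, 37.9%, lay over the summit, and its enrichment of 15.4-fold was the highest. The nearest zcrest 1 region was 26.8 kb away. At chr13:53793102-53793925 the summit had 95 reads, and the nearest zcrest 1 region was 5.29 kb away, close to the limit of the rule. Its flanking shared regions differed in opposite directions, with 11 reads in zcrest 2 and 25 in zcrest 1 on the left, and 38 in zcrest 2 and 17 in zcrest 1 on the right.

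Chromosome 22 held 2 more of the 10 strongest. The region chr22:9737301-9738198 had 91 reads and chr22:6761380-6762014 had 74, each with its nearest zcrest 1 region 25.2 kb and 26.1 kb away. Shared regions flanking the first had 41 reads in zcrest 2 and 26 in zcrest 1 on the left, and 40 in zcrest 2 and 12 in zcrest 1 on the right. Around both, the shared regions within 500 kb had a median log2 ratio of summit reads, zcrest 2 over zcrest 1 and relative to the genome-wide median, of 0.69 and 0.65, called the local log2 ratio here. The remaining 4 lay at chr20:36451854-36452456, chr7:54247586-54248718, chr10:12415400-12416157 and chr24:41121674-41122690. They had 77, 87, 84 and 86 reads, and their nearest zcrest 1 regions lay 6.35 to 10.8 kb away.

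The widest regions were not the strongest, apart from the one on chromosome 5. The widest, chr8:35361556-35362980, spanned 1425 bp with 54 reads but only a 2.67-fold enrichment, because its 10 kb held 980 reads, of which 5.51% lay over the summit. It stood in a crowded stretch, with 19 other zcrest 2 regions and 8 zcrest 1 regions between 5 and 50 kb away. The next were chr10:5944917-5946234 (1318 bp, 28 reads), chr22:17657150-17658445 (1296 bp, 41 reads) and chr18:28630945-28632204 (1260 bp, 34 reads). The chromosome 10 region had its nearest zcrest 1 region 74.9 kb away.

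The distance from an alone region to the nearest zcrest 1 region had a median of 14.0 kb, with quartiles of 8.31 kb and 23.5 kb. It exceeded 10 kb in 445 regions, 20 kb in 215, 50 kb in 34 and 100 kb in 2. The most remote, chr7:18121383-18122471, had 67 reads over 1089 bp, ranked 1207 in the list and lay 149 kb from any zcrest 1 region. Shared regions around it leaned to zcrest 1. The one on the left, 153 kb away, had 16 reads in zcrest 2 and 39 in zcrest 1. The one on the right, 606 kb away, had 12 in zcrest 2 and 16 in zcrest 1. The local log2 ratio was -0.64, from only 8 matched shared regions. The other 2 were chr4:47785420-47786083, 130 kb away with 22 reads, and chr12:17804402-17805240, 96.2 kb away with 25 reads.

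Just inside and outside the limits of the rule, summit reads varied widely. The 3 alone regions just inside the width limit, all 600 bp, had 13, 17 and 19 summit reads, and the 3 just outside it, all 599 bp, had 44, 29 and 13. The 3 just inside the distance limit lay 5009, 5018 and 5021 bp from a zcrest 1 region, with 27, 91 and 28 reads. The 3 just outside lay 4986, 4973 and 4939 bp away, with 32, 27 and 13 reads.

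By chromosome, the share of wide zcrest 2 regions that were alone ran between 2.59% on chromosome 19 (1.42% to 4.31%, 14 of 540) and 22.0% on chromosome 4 (16.3% to 28.7%, 41 of 186), where all chromosomes together gave 6.17%. Chromosome 12 followed with 11.2% (8.63% to 14.3%, 57 of 507), the most alone regions of any chromosome. Among zcrest 2 regions of any width the 2 chromosomes were close, with 37.6% alone on chromosome 4 and 36.4% on chromosome 12. Chromosomes 22, 11, 7 and 13 came next, with 8.99%, 8.76%, 8.61% and 8.07%. The interval lay wholly above 6.17% on chromosomes 4, 12, 7 and 22 and wholly below it on chromosomes 6, 17, 19, 21 and 23.  Neighbours in this order mostly had overlapping intervals, but that of chromosome 4 lay above that of chromosome 12.

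**Figure D2:**
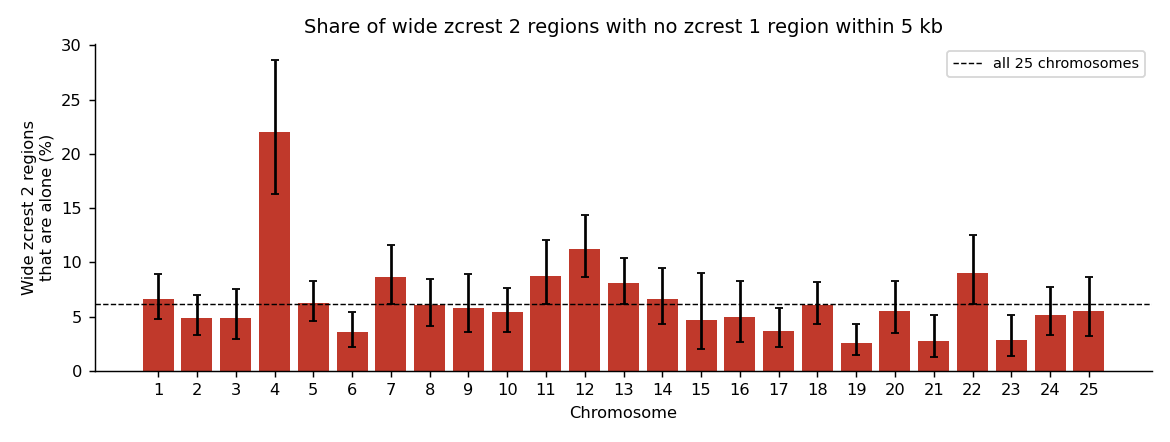
Percentage of wide zcrest 2 regions on each of the 25 chromosomes that had no zcrest 1 region within 5 kb, with exact 95% binomial intervals; the dashed line is the value for all chromosomes together, 6.17%. Chromosome 4 stands highest at 22.0% and chromosome 12 follows at 11.2%.

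On chromosome 4, whose long arm is known as a repeat-rich part of the zebrafish genome, the alone regions were weak. Their summits had 10 to 41 reads with a median of 19, and the strongest, chr4:35954952-35956047, ranked 7783. The median was also 19 on chromosome 9, lower on chromosome 17 at 16.5, and higher on the other chromosomes. The alone regions of chromosome 4 were spread over 12 of the windows of 5 Mb. The window from 55 to 60 Mb held 7 of its 17 wide regions (41.2%, 18.4% to 67.1%), and the window from 45 to 50 Mb held 4 of 8. Chromosome 4 had few wide regions to begin with, 186 against 669 on chromosome 13. In zcrest 1 it also had a high share, with 72 of 217 wide regions lacking a zcrest 2 region within 5 kb.

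Chromosomes 12 and 13 held 57 and 54 alone regions with median summits of 24 and 27 reads. Only on these 2 of the 25 chromosomes did the alone wide regions of zcrest 2 outnumber those found by the same rule in zcrest 1. On chromosome 12 there were 57 of 507 wide regions in zcrest 2 and 19 of 300 in zcrest 1. On chromosome 13 there were 54 of 669 in zcrest 2 and 42 of 567 in zcrest 1. On chromosome 16 the counts were 13 of 264 in zcrest 2 and 137 of 552 in zcrest 1. On chromosome 19 they were 14 of 540 in zcrest 2 and 133 of 880 in zcrest 1. The strongest alone region of chromosome 12, chr12:19343009-19343742, had a rank of 2865 and an 11.7-fold enrichment.

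Alone regions were found in most windows of 5 Mb, in varying numbers. Whether these numbers vary more than those of wide regions in general was not tested. Of 284 windows with a wide zcrest 2 region, 238 held at least 1 alone region, 43 held 5 or more and 9 held 8 or more. These last 9 contained 12.4% of the alone regions and 4.96% of all wide ones, and were picked for their counts. The most, 11 of 66 wide regions, was on chromosome 13 from 30 to 35 Mb. Windows with 10 lay on chromosome 12 from 15 to 20 Mb (of 56 wide regions) and from 25 to 30 Mb (of 60). Chromosome 7 had 10 from 60 to 65 Mb (of 56), and chromosome 5 had 10 from 70 to 75 Mb (of 69).

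The surroundings of the alone regions were then examined with regions the rule had not chosen. Shared regions matched one to one (32455 pairs of any width) give a ratio of summit reads, zcrest 2 over zcrest 1, on the log2 scale with the genome-wide median set to 0. The local log2 ratio is the median over the pairs within 500 kb, and at least 5 pairs were required, which 678 alone regions and 10090 shared regions met. Around alone regions it had a median of 0.23, with quartiles of 0.01 and 0.46, and around shared regions a median of 0.06, with quartiles of -0.20 and 0.30. It was above 0 at 76.3% of the alone regions (72.9% to 79.4%, 517 of 678) and at 57.6% of the shared ones (56.6% to 58.5%). Regions within 500 kb of each other share pairs. No test of this difference was possible with 1 library per line.

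Read the other way, the share of wide regions that were alone was 2.64% to 4.57% in the 4 classes of local log2 ratio below 0, 6.31% from 0 to 0.25, 8.81% from 0.25 to 0.5 and 10.2% from 0.5 to 0.75 (8.58% to 12%, 126 of 1234). It was 9.42% at 0.75 or more, where only 18 of 191 wide regions were alone and the interval ran from 5.68% to 14.5%. The lowest class, below -0.75, had 4.57% (2.64% to 7.32%, 16 of 350).

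**Figure D3:**
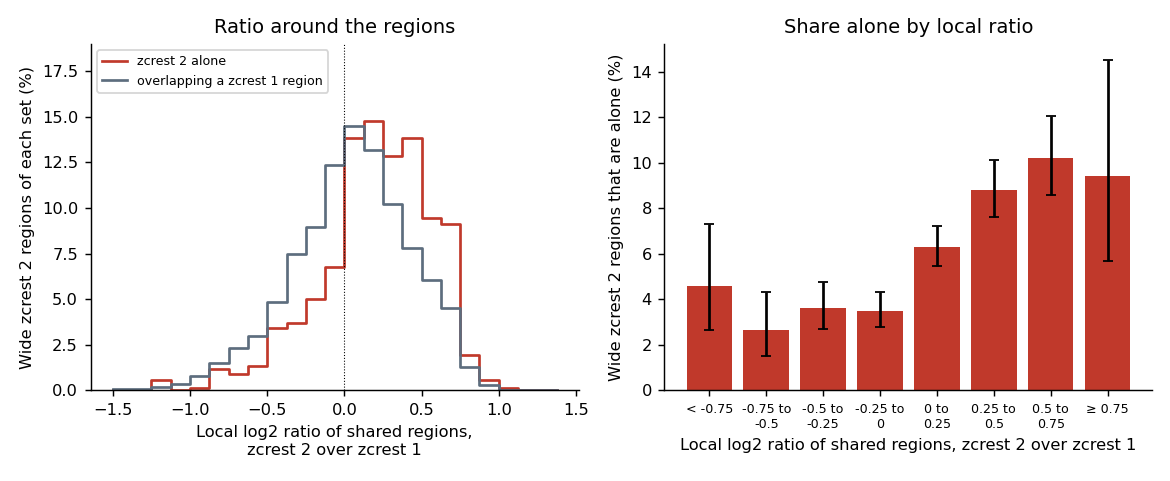
Left, distribution of the local log2 ratio of summit reads at shared regions within 500 kb, zcrest 2 over zcrest 1, around alone regions (red, n = 678) and around shared regions (grey, n = 10090), as percentage of each set. Right, percentage of wide zcrest 2 regions that were alone in each class of the local ratio, with exact 95% binomial intervals; it was under 5% in each class below 0 and 10.2% from 0.5 to 0.75.

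The median local ratio was higher at alone regions than at shared regions in each of the 8 classes of summit reads. With 20 to 24 reads the median local log2 ratio was 0.30 at alone regions and -0.002 at shared regions, with 30 to 39 reads it was 0.27 and 0.03, and with 50 to 69 reads 0.38 and 0.10. At 70 reads or more, where 18 regions were alone, it was 0.23 and 0.17. By width it was higher in every class below 1200 bp, and at 1200 bp or more, with 9 alone regions, it was 0.09 and 0.10. By chromosome the median at alone regions was the higher in 21 of 25, with chromosomes 12, 15, 18 and 25 as the exceptions. Many of these differences were small: on chromosome 11 the medians were 0.47 at alone regions and 0.44 at shared regions, and on chromosome 12 they were 0.50 and 0.54. On chromosome 2 they were 0.17 and -0.13, and on chromosome 9 0.01 and -0.28. Across the 25 chromosomes, which share their 2 libraries, the share of wide regions that were alone had a Spearman rho of 0.74 with the chromosome's own pair ratio, and 0.76 over 24 chromosomes without chromosome 4.

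Not every alone region stood in such surroundings. At 31 of the 678 (4.57%) the local log2 ratio was below -0.5, against 8.54% of the shared regions. All 57 alone regions of chromosome 12 and all 54 of chromosome 13 had a local ratio above 0, as did 28 of the 35 with a value on chromosome 4. Shared regions of chromosomes 12, 13 and 4 had median local log2 ratios of 0.54, 0.28 and 0.13. Values above 0 were therefore common at shared regions there too. On chromosomes 16, 19 and 23, where alone regions were few, the median local ratio around them was -0.53, -0.40 and -0.45. Around shared regions of the same chromosomes it was close to these values, at -0.56, -0.40 and -0.45.

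Regions of zcrest 1 were sparser around the alone regions than around the shared ones, also beyond the 5 kb that the rule required to be empty. The rule took alone regions for lacking a zcrest 1 region and shared regions for having one. It therefore favours places poor in zcrest 1 regions beyond 5 kb too, and how much of the difference this makes was not tested. Between 5 and 50 kb from the edges, alone regions had on average 4.25 other zcrest 2 regions and 3.8 zcrest 1 regions. Shared regions had 4.48 zcrest 2 regions and 4.92 zcrest 1 regions. Of the regions of both lines there, zcrest 1 made up 47.2% (45.8% to 48.5%) around alone regions and 52.3% (52.0% to 52.6%) around shared regions. The pattern reached as far as was counted. From 75 to 100 kb there were 0.423 zcrest 2 and 0.417 zcrest 1 regions per 10 kb around alone regions, against 0.449 zcrest 2 and 0.506 zcrest 1 regions around shared regions. Close by, the alone regions stood by themselves: 15.8% had another zcrest 2 region within 5 kb, against 32.9% of the shared regions, but the rule favours sparse places, since it admits none that coincide with zcrest 1.

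Among the zcrest 2 neighbours of alone regions, a larger share was itself alone than among the neighbours of shared regions. To limit overlap with the 5 kb of the rule, neighbours of any width at more than 10 kb and up to 50 kb were taken. They were scored by the same lack of zcrest 1 regions that chose the alone regions. The rule thus favours a higher share around alone regions, and how much it adds was not tested. Of 2600 such neighbours of alone regions, 797 had no zcrest 1 region within 5 kb (30.7%, 28.9% to 32.5%), and of the neighbours of shared regions 20.1% (19.7% to 20.5%). The share among all zcrest 2 regions was 22.4%. From 75 to 100 kb it was 29.6% (27.3% to 32.0%) around alone regions and 21.6% (21.1% to 22.2%) around shared regions. A neighbour is counted once for each wide region it is near.

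**Figure D4:**
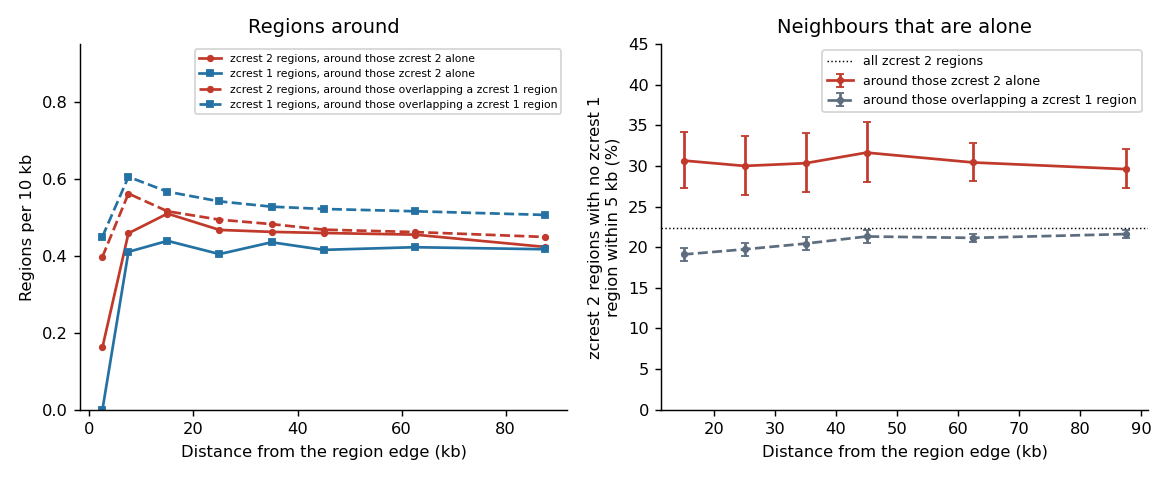
Left, regions of zcrest 2 (red) and of zcrest 1 (blue) per 10 kb by distance (kb) from the edges of alone regions (solid lines) and of shared regions (dashed lines); zcrest 1 is at 0 within 5 kb of alone regions by the rule. Right, percentage of zcrest 2 neighbours that had no zcrest 1 region within 5 kb, with exact 95% binomial intervals, around alone regions (red) and shared regions (grey); it is drawn from 10 kb outward, where it was near 30% around alone regions, and the dotted line is the share among all zcrest 2 regions, 22.4%.

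The same order was seen in each class of the local ratio. Where the local log2 ratio lay between 0.25 and 0.5, 37.9% of the neighbours of alone regions were alone (34.4% to 41.4%), against 26% of those of shared regions (25.1% to 27.0%). Between -0.25 and 0 the shares were 25.1% (19.6% to 31.3%) and 15% (14.2% to 15.9%). At 0.5 or more, where the gap was smallest, they were 32.4% (29.0% to 36.0%) and 29.9% (28.8% to 31.1%), with overlapping intervals. Below -0.25 the intervals overlapped too, at 15.1% (10.6% to 20.5%) around alone regions and 10.1% (9.4% to 10.9%) around shared regions. By chromosome the share was higher around alone regions in 21 of 25, the exceptions being chromosomes 6, 12, 15 and 17. On chromosome 4 it was 53.3% around alone regions and 21.6% around shared regions, where 37.6% of all zcrest 2 regions of that chromosome were alone.

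Alone zcrest 2 regions of any width lay 10 to 50 kb from 61.0% of the 685, and from 48.1% of the shared regions. The rule favours this difference too. Other wide alone regions were rarer, and most of the 685 had none within 50 kb. Joined where the gap was at most 50 kb, the 685 formed 650 groups, of which 619 were a single region, 31 held 2 or more and 4 held 3. In groups of 2 or more stood 66 regions (9.64%), against 60.6% of the far more numerous shared regions. The share joined rises with the number of regions in a set, so these 2 shares do not compare how closely the sets cluster. Whether 9.64% is more or less than so few regions would give anywhere was not tested. The group of 3 with the most reads spanned 37.8 kb on chromosome 18 at 16940291 to 16978119. Its members had 36, 51 and 22 summit reads over 705, 801 and 604 bp. The span held 6 zcrest 2 regions and 0 zcrest 1 regions, and the nearest zcrest 1 region to any of the 3 was 56.9 kb away. The local log2 ratio there was 0.50.

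A group on chromosome 5 at 73682357 to 73760272 had members of 31, 33 and 15 reads, with 8 zcrest 2 regions and 1 zcrest 1 region inside its 77.9 kb. A group on chromosome 14 at 28352670 to 28400694 had members of 22, 20 and 28 reads, with no other region of zcrest 2 and 0 of zcrest 1 inside its 48.0 kb. The local log2 ratio was 0.01 at the first and second of them and 0.92 at the third.

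The 685 alone regions occupied 655 stretches that run between neighbouring zcrest 1 regions, with a median length of 51.5 kb among the 654 bounded on both sides. In 263 of these stretches (40.2%) the alone region was the sole zcrest 2 region, 282 held 2 or 3 and 110 held 4 or more. The stretches named here were chosen after their counts were seen. The fullest, on chromosome 4 from 47655158 to 48101569, was also the longest, at 446 kb. It held 19 zcrest 2 regions, all weak, with a median of 13 summit reads and at most 22. The next, on chromosome 7 from 64251266 to 64390643, was shorter and stronger. In 139 kb it held 12 zcrest 2 regions with a median of 28.5 reads and a maximum of 64, and 2 of the 12 were among the 685. Stretches on chromosome 18 from 38769187 to 38981684 and on chromosome 5 from 74175612 to 74255365 held 10 and 9 zcrest 2 regions, with medians of 13 and 15 reads. In these 3 places outside chromosome 4 the local log2 ratio was 0.27, 0.65 and 0.42.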

How the data were processed

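One peak list per library was used for 2 libraries. Peaks were called with MACS2 2.1.0 against the zebrafish assembly Zv9, as the submitters' processing notes give it. The names in each list carry that library's name, so calling was per library. The sources used here do not give the aligner, duplicate handling, read shift or total depth. The deposited lists give, per peak, a score (10 times the -log10 q without decimals), a fold enrichment ratio, a -log10 p and a -log10 q (both the authors' values, at a q-value limit of 0.05) and a summit offset. Other values were computed here.

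Summit reads are the whole-number pileup (at most 800 tried) that solves the deposited fold enrichment and -log10 p together, within 0.001, found for 100% of peaks in both lists. The local background times 50 gives the reads in 10 kb, taking reads as 200 bp. Pairs were peaks that each overlap 1 peak of the other list. Positions count from 1. Groups followed the sample titles, 1 library each, so all results are descriptions with no test.

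The regions, lists and settings were chosen with earlier results of these data known. Named regions follow 1 rule: the 10 highest -log10 q, the 5 widest, the 3 farthest from zcrest 1, the 3 groups with most regions and the 3 nearest each limit. Chromosomes, their strongest regions on chromosomes 4 and 12, windows and stretches were named after their values were seen. Alternatives changed width, distance, strength, windows and joining. Sequence features were not analysed. On simulated data, 100% of 2936 pileups and 100% of 400 distances were recovered, and a planted log2 ratio of 1 came back as 0.93. The pileups were simulated with the same formula that was then solved. The planted ratio used 2000 pairs without a calling limit. These checks therefore cover the code, not the precision reached on the real lists. Python 3.11.15, numpy 2.4.6, pandas 2.3.3 and scipy 1.17.1 were used.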

Additional observations from a re-analysis of the deposited data

How the results depend on the processing

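Of the values compared between alone and shared regions, none turned its direction under the 19 alternatives that gave one. The joining alternatives compare sets of unlike size, and the rule favours those on surrounding regions and on alone neighbours. For these a kept direction says little. Of all 44 alternatives, 26 were scored as moved, with a count beyond a set factor or a share outside the interval of its main value. The number of alone regions, 685, followed the limits of the rule: it was 1321, 340, 172 and 41 at widths of at least 500, 700, 800 and 1000 bp. It was 929, 863, 445 and 215 with 1, 2, 10 and 20 kb in place of 5 kb. It was 401 at a -log10 q of at least 10 in zcrest 2, and 1091 where only zcrest 1 regions of at least 5 counted as near. The share of alone regions below the median of shared regions was 77.5% by fold enrichment. The share on chromosome 4 was 12.4% at 20 kb, against 1.76% elsewhere, and chromosomes 4 and 12 stayed highest in the 3 alternatives. The share with a local ratio above 0 was 80.95% at 20 kb (57.6% at shared regions) and 71.9% at 800 bp (60.6% at shared regions). Zcrest 1 made up 39.9% of the regions around alone regions, against 46.3% around shared ones, with its regions of a -log10 q of at least 5. Grouped alone regions made up 5.11% at 25 kb and 15.8% at 100 kb. Alone neighbours with a -log10 q of at least 10 made up 11.1%, against 6.25% around shared regions. Settings without chromosome 4, with 15 to 39 reads, and for alone neighbours were chosen after seeing the data. No paired analysis was possible because each line has 1 library. Weak regions limit precision: the zcrest 1 list starts at 7 summit reads, so absence from it does not show closed chromatin.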
